A study of Homo sapiens with 12 samples.

Results

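Aldo-keto reductases (AKRs) and aldehyde dehydrogenases (ALDHs) were examined through 10 genes, AKR1B1, AKR1B10, AKR1C1, AKR1C2, AKR1C3, ALDH1A1, ALDH1A3, ALDH3A1, ALDH3B1 and the carbonyl reductase CBR1, with every non-control probe that the array files list under one of these names taken as a member. This gave 17 probes for 9 of the 10 genes, out of 50493 probes analyzed. AKR1C2 had no probe under its own name, but both AKR1C1 probes that carry a RefSeq transcript also list transcripts of AKR1C2, so signal on them may come from either gene. Most members were far brighter in A549 than in PC14 and PC14CDDP: on the probe with the highest mean signal, AKR1B10, AKR1C1 and AKR1C3 differed by more than 10 units on the log2 scale between A549 and PC14, and ALDH1A1 and ALDH3A1 by more than 7. Between PC14CDDP and PC14, AKR1B10, AKR1C3, ALDH1A3 and CBR1 were called lower in PC14CDDP, as were 23.5% of all probes. On the highest-mean probe of each gene, only CBR1 passed under every alternative fit. AKR1B10 was well above background on 1 of 4 PC14CDDP arrays. No member probe passed the test in any of the comparisons between transfections.

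RNA from 3 lung adenocarcinoma cell lines was hybridized to 12 one-color arrays, 1 for each line and transfection. The lines were A549, PC14 and PC14CDDP, the latter a cisplatin-resistant line of PC14. Each line was transfected at 25 nM with 1 of 4 oligonucleotides. The precursor pre-miR-197, which raises miR-197, was compared with a negative control that the sample records label AllStar-NC, called NC here. The inhibitor LNA-miR-197, a locked nucleic acid (LNA) against miR-197, was compared with a control labeled LNA-miR-NC, called LNA-NC here. All 12 samples were therefore transfected cells, and no untransfected cells were included. Each line was represented by 4 arrays that differ in the oligonucleotide, and the spread between the 4 arrays of a line therefore includes any effect of transfection. Slide 1 held the A549 arrays and slide 2 those of both other lines, so line and slide cannot be told apart in comparisons with A549. Slide column and oligonucleotide cannot be told apart either, because a given oligonucleotide was hybridized in the same column for each line. As these are bulk RNA measurements, a low signal from fewer expressing cells and from less RNA per cell cannot be told apart.

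The 12 arrays were alike in overall quality. The 75th percentile of the signal lay between 613.53 and 714.58, 55.8 to 63.1% of probes were well above background on an array, and repeat spots of a probe had a median SD of 0.0712 to 0.0797 on the log2 scale. The lowest share, 55.8%, belonged to the LNA-miR-197 array of PC14CDDP. The keratins KRT8 and KRT18, general markers of epithelial cells, were well above background on all 4 arrays of each line, whereas the epithelial adhesion genes CDH1 and EPCAM were measured on 4 A549 arrays, on 2 and 3 PC14 arrays and on 0 PC14CDDP arrays. Of 5 genes of the lung lineage, NAPSA and SFTPC were well above background on all 4 arrays of each line, NKX2-1 on 4 arrays of PC14 and of PC14CDDP and 0 of A549, SFTPA1 on 1 PC14 array, and SFTPB on 0 of the 12 arrays.

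AKRs reduce aldehydes and ketones to alcohols with NADPH. AKR1B1 (aldose reductase) and AKR1B10 act on sugar-derived and retinoid aldehydes, and AKR1C1 to AKR1C3 interconvert steroid hormones and, for AKR1C3, prostaglandins. ALDHs oxidize aldehydes to carboxylic acids: ALDH1A1 and ALDH1A3 make retinoic acid from retinal, and ALDH3A1 and ALDH3B1 act on aldehydes from lipid peroxidation and on medium-chain or aromatic aldehydes. CBR1 reduces carbonyl compounds including prostaglandins, quinones and anthracycline drugs. Many of these genes are textbook targets of NRF2, the transcription factor of the antioxidant response, and ALDH1A1 is widely used as a marker of stem-like tumor cells.

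The probe sequences show which part of each messenger RNA was read. The probes printed here lie in coding sequence. For AKR1C1, ALDH1A1 and ALDH3A1 they are not the probes with the highest mean signal. The highest-mean AKR1C1 probe, A_23_P257971, has 0 reading frames without a stop codon. The stop codon of AKR1B10 and the start codon of AKR1C1 are in capitals, and the part of the AKR1B10 probe past the stop codon is left out.
AKR1B10 (A_24_P129341): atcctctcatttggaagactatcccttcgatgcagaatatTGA
AKR1C1 (A_24_P152968): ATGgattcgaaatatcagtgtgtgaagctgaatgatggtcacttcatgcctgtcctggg
AKR1C3 (A_23_P138541): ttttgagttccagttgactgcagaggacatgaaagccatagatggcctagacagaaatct
AKR1B1 (A_23_P258190): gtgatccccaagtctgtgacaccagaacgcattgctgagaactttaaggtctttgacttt
ALDH1A1 (A_23_P83098): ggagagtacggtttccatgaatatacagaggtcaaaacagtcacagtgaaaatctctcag
ALDH3A1 (A_23_P207213): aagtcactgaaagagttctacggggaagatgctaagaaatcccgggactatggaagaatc
In the files' coordinates, for which no genome build is named, the 2 AKR1B10 probes lie on chromosome 7 at 134225799-134225858 and 134225939-134225998 on the plus strand, and the AKR1B1 probe spans 134130061-134132097 on the minus strand, 2037 bases for a 60-base probe, so that it crosses at least 1 intron. The AKR1C1 and AKR1C3 probes lie on the plus strand of chromosome 10, between 5005636 and 5147848. The ALDH3A1 probe printed here, A_23_P207213, spans 675 bases of chromosome 17 and also crosses an intron. The other ALDH1A1 and ALDH3A1 probes also have a reading frame without a stop codon, so they may be coding too. Among probes of different AKR, ALDH and CBR genes, the best ungapped match to a member probe was 31 of 50 bases, between AKR1C3 and AKR1B15, so no pair of probes for 2 differently named genes was near-identical. Cross-hybridization to transcripts of paralogs could not be examined from probe sequences alone.

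All 17 member probes passed the filter of being well above background on at least 3 of 12 arrays. Of these, 3 passed through A549 arrays only: the third AKR1C1 probe, A_33_P3365117, and the printed ALDH1A1 and ALDH3A1 probes. A probe that passed only through the line in which it is bright had to differ between lines, so those 3 are described by bounds. Levels are log2 signals after subtraction of each array's 75th percentile, with the arrays in the order NC, pre-miR-197, LNA-NC and LNA-miR-197; they compare lines for 1 probe and not probes with each other.

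In A549, the AKR1B10 probe with the highest mean signal had log2 levels of 8.03, 8.14, 8.07 and 8.23, and in PC14 the levels were -3.35, -3.39, -3.44 and -3.95. In PC14CDDP they were -6.92, -7.95 and -7.45 on the NC, pre-miR-197 and LNA-NC arrays, where the probe was not well above background, and -3.57 on the LNA-miR-197 array, where it was. All A549 arrays were therefore above all others, and the LNA-miR-197 array of PC14CDDP sat among the PC14 arrays rather than with its own line. The difference between A549 and PC14 was 11.65 ± 0.74 (SE) on the log2 scale, a 3213-fold difference (limma, adjusted p = 2.89e-06, n = 4 arrays per line). The other AKR1B10 probe, A_23_P93641, gave 12.01 ± 0.77 (limma, adjusted p = 2.99e-06), so the size did not rest on a single probe.

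AKR1C1 on its brightest probe, A_23_P257971, had log2 levels of 7.33, 7.34, 7.42 and 7.47 in A549, -4.00, -3.16, -4.57 and -4.65 in PC14, and -4.80, -4.45, -4.28 and -6.06 in PC14CDDP, the last of these not well above background. AKR1C3, the member that makes testosterone from androstenedione, had levels of 7.87, 7.92, 7.91 and 7.74 in A549 and of -3.15, -2.97, -3.74 and -5.10 in PC14. In both genes the 4 A549 arrays lay close together and above every array of the other lines. The difference between A549 and PC14 was 11.48 ± 0.35 on the log2 scale for AKR1C1 (limma, adjusted p = 4.68e-08) and 11.60 ± 0.31 for AKR1C3 (limma, adjusted p = 2.43e-08). The AKR1C1 probe over the start codon, A_24_P152968, differed by 10.99 ± 0.43. The third AKR1C1 probe, which carries no RefSeq transcript, was measured on 4 of 4 A549 arrays and on no array of PC14 or PC14CDDP, which put A549 at least 44.1-fold above PC14 and at least 33.3-fold above PC14CDDP.

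AKR1B1, the neighbor of AKR1B10 on chromosome 7, was measured on all 12 arrays. Its log2 levels were 7.71, 7.77, 7.68 and 7.86 in A549, 4.22, 4.07, 4.01 and 3.94 in PC14, and 4.38, 3.61, 4.04 and 3.88 in PC14CDDP. A549 was higher than PC14 by 3.70 ± 0.14 on the log2 scale, or 13-fold (limma, adjusted p = 1.52e-07), a difference much smaller than that of AKR1B10, while PC14 and PC14CDDP overlapped.

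**Figure D1:**
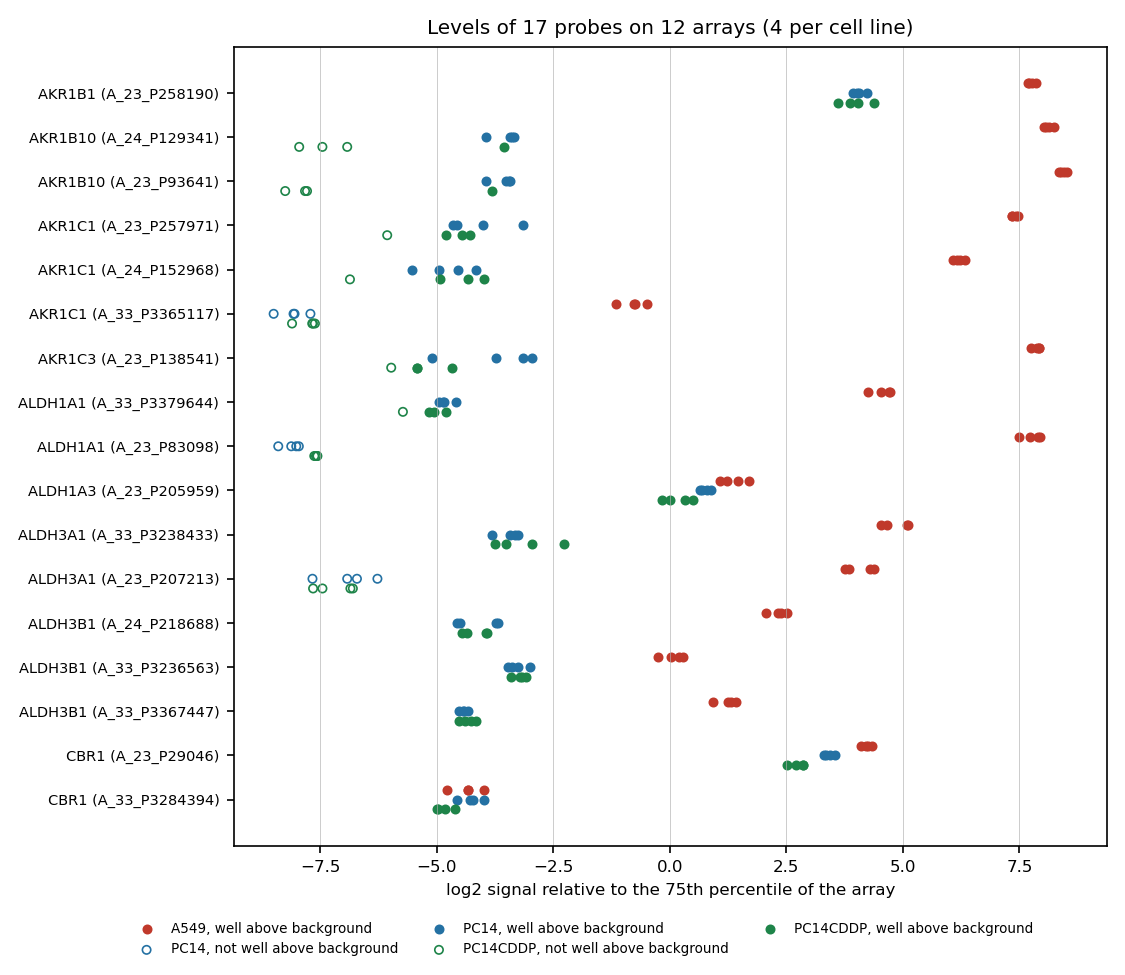
Log2 signal of the 17 member probes minus each array's 75th percentile (horizontal axis), 1 point per array and 4 arrays per line, filled where the probe was well above background. A549 (red) stood apart from both other lines for every AKR1B, AKR1C, ALDH1A1, ALDH3A1 and ALDH3B1 probe. Among these, A_33_P3365117, A_23_P83098 and A_23_P207213 passed the filter through A549 arrays only and had to differ. Of all probes, 34.4% were called higher and 33.1% lower in A549 than in PC14. AKR1B10 probe A_24_P129341 was at 8.03 to 8.23 in A549 and -3.95 to -3.35 in PC14. Levels compare lines within a probe, not probes.

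For ALDH1A1, the printed probe A_23_P83098 had log2 levels of 7.72, 7.93, 7.89 and 7.48 in A549. It was well above background on 0 of the 8 other arrays, where the values ran from -8.40 to -7.56. A549 was at least 16491-fold above PC14 and at least 12450-fold above PC14CDDP on this probe. The second probe, A_33_P3379644, which was dimmer in A549 (4.25 to 4.72), was well above background on 4 PC14 and 3 PC14CDDP arrays, at -4.94 to -4.59 and -5.73 to -4.80, and differed by 9.36 ± 0.19 on the log2 scale between A549 and PC14 (limma, adjusted p = 6.73e-09). The second probe, measured in every line, placed A549 above the other lines. The printed probe passed the filter through A549 arrays only and had to differ. The probes disagreed on whether the gene was measured in PC14. ALDH1A3, which also makes retinoic acid, had levels of 1.22, 1.46, 1.07 and 1.69 in A549 and 0.88, 0.81, 0.69 and 0.64 in PC14. Its difference of 0.61 ± 0.16 on the log2 scale, or 1.52-fold (limma, adjusted p = 0.0107), was small beside that of ALDH1A1. It no longer passed without the pre-miR-197 arrays (adjusted p = 0.0545) or on the NC and LNA-NC arrays alone (0.36, adjusted p = 0.0891).

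ALDH3A1, an enzyme known from cornea and from airway tumors, had log2 levels of 4.52, 4.66, 5.09 and 5.10 in A549 on A_33_P3238433, against -3.26, -3.32, -3.82 and -3.42 in PC14. The difference was 8.30 ± 0.30 on the log2 scale (limma, adjusted p = 1.18e-07). On its printed probe, A_23_P207213, A549 was at least 1276-fold above PC14 and at least 964-fold above PC14CDDP. ALDH3B1 was higher in A549 on all 3 of its probes, by 6.44 ± 0.20, 3.35 ± 0.10 and 5.65 ± 0.10 on the log2 scale, so its probes put the same direction on differences that ran from 10.2-fold to 86.7-fold. CBR1 also differed by less than 2-fold: its brighter probe had levels of 4.10, 4.35, 4.21 and 4.25 in A549 and 3.36, 3.43, 3.55 and 3.32 in PC14, a difference of 0.82 ± 0.10 or 1.76-fold (limma, adjusted p = 0.000122). Its second probe, A_33_P3284394, differed by -0.08 ± 0.14 between these lines (limma, adjusted p = 0.603).

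In all, 16 of 17 member probes were called higher in A549 than in PC14 and 0 were called lower. Of all 33712 probes, 34.4% were called higher and 33.1% lower. The 16 include the 3 probes that passed the filter through A549 arrays only, which had to differ. Among the 14 member probes well above background on every array of both lines, 13 were called higher. The median difference from PC14 over these 14 probes was 7.37 on the log2 scale, beside 0.05 over all probes tested. Against PC14CDDP, 17 of 17 were called higher, with 35.5% of all probes called higher and 34.7% lower. The same 3 probes had to differ here too. Of the 14 others, 14 were called higher, and 8 of these were well above background on every array of both lines. Comparisons of A549 with the other lines share the A549 arrays and are not independent of each other.

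**Figure D2:**
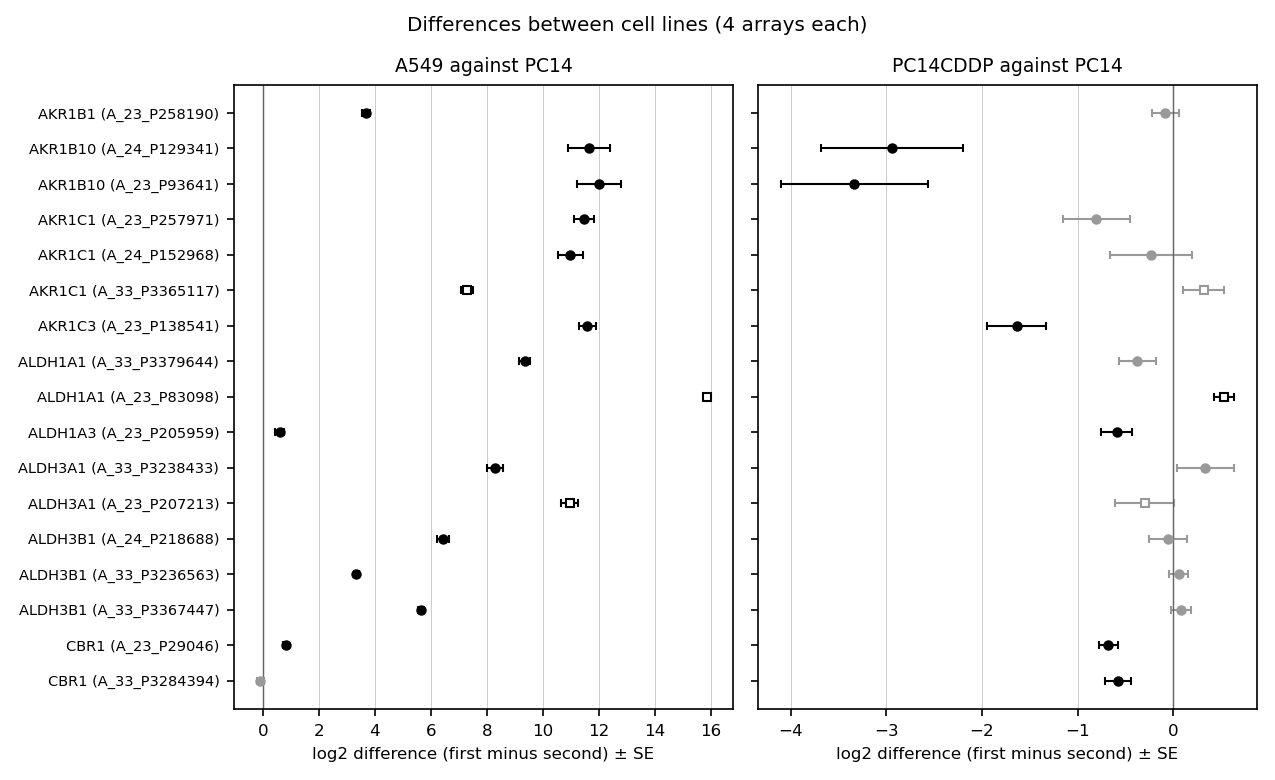
Difference between cell lines for each member probe on the log2 scale (horizontal axes, first line minus second) with its SE from the limma fit, 4 arrays per line; black marks probes called at an adjusted p under 0.05, gray those not called, and open squares probes well above background on 0 arrays of at least 1 of the lines. Against PC14, 16 of 17 probes were higher in A549. The 3 open squares among them passed the filter through A549 arrays only and had to differ. Between PC14CDDP and PC14 most lay near 0 with AKR1B10 lowest at -2.94 and -3.34. The 2 panels have different scales.

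PC14CDDP is the cisplatin-resistant counterpart of PC14, and this comparison asks how the members stand in the resistant line. For most members the differences were far smaller than those between A549 and PC14, but not for ALDH1A3 and CBR1. ALDH1A3 differed by -0.59 here and by 0.61 between A549 and PC14 on the log2 scale. The brighter CBR1 probe differed by -0.68 and 0.82, and the second CBR1 probe by -0.57 and -0.085. Of 17 probes, 6 were called lower and 1 higher in PC14CDDP, with 23.5% of all probes called lower and 25.1% called higher. The probe called higher was the printed ALDH1A1 probe, A_23_P83098, which was well above background on 0 of the 8 arrays, so no direction is read from it. The 6 probes called lower were the 2 of AKR1B10, the 2 of CBR1 and those of AKR1C3 and ALDH1A3. The median difference over the 14 probes well above background on at least 1 array of each line was -0.47 on the log2 scale. Over all probes tested it was 0.04. Over the 8 member probes well above background on every array of both lines it was -0.07.

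AKR1B10 was lower in PC14CDDP, with differences of -2.94 ± 0.74 and -3.34 ± 0.77 on the log2 scale on its 2 probes (limma, adjusted p = 0.0113 and 0.00739). The groups overlapped because of the LNA-miR-197 array of PC14CDDP, at -3.57. Without the LNA-miR-197 arrays, the difference of the brighter probe was -4.05 (limma, adjusted p = 9.75e-05), and PC14 was at least 5.68-fold above PC14CDDP. With the NC, pre-miR-197 or LNA-NC arrays left out in turn, it was -2.40 to -2.73 and no longer passed (adjusted p = 0.0675 to 0.0718). Normexp background correction, which compresses dim signals, reduced it to -0.64, which still passed (adjusted p = 0.0122).

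AKR1C3 had log2 levels of -4.68, -5.43, -5.42 and -5.98 in PC14CDDP, the last not well above background, against -2.97 to -5.10 in PC14. On every transfection the PC14CDDP array was below its PC14 counterpart, although the ranges of the lines overlapped. The difference was -1.64 ± 0.31 on the log2 scale (limma, adjusted p = 0.00257), was -0.58 with normexp background correction, and was not called by the methods' t-test (adjusted p = 0.0694). AKR1C1 differed by -0.80 ± 0.35 and -0.23 ± 0.43 on its 2 measured probes, neither of which passed (limma, adjusted p = 0.0897 and 0.693). The first of these passed without the LNA-NC arrays (-1.17, limma, adjusted p = 0.0415) and with a trended, robust prior (adjusted p = 0.04785).

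CBR1 had the lowest adjusted p of the members between PC14CDDP and PC14, with every array measured and no overlap. Its brighter probe had levels of 2.86, 2.71, 2.86 and 2.51 in PC14CDDP against 3.32 to 3.55 in PC14, and the difference was -0.68 ± 0.10 on the log2 scale, a 1.60-fold lower level (limma, adjusted p = 0.000685). The second CBR1 probe differed by -0.57 ± 0.14 (limma, adjusted p = 0.00844). ALDH1A3 was at 0.49, 0.33, 0.01 and -0.17 in PC14CDDP, below the PC14 arrays at 0.64 to 0.88, with a difference of -0.59 ± 0.16 or 1.51-fold (limma, adjusted p = 0.0171). That call was lost without the pre-miR-197 arrays (adjusted p = 0.0623), without the LNA-NC arrays (0.0777) and on the NC and LNA-NC arrays alone (0.0521).

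AKR1B1, ALDH3A1, ALDH3B1 and the measured ALDH1A1 probe did not pass between PC14CDDP and PC14. Their differences were -0.08 ± 0.14, 0.34 ± 0.30, -0.05 ± 0.20 and -0.37 ± 0.19 on the log2 scale. Without the LNA-miR-197 arrays the ALDH1A1 difference was -0.55 and passed (limma, adjusted p = 0.03585). ALDH3A1 in PC14CDDP ran from -3.75 to -2.26 and enclosed most of the PC14 range of -3.82 to -3.26.

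miR-197 acts by pairing of its seed, bases 2 to 8 of the mature strand, with messenger RNAs. The mature sequences from RefSeq (GRCh38.p14, chromosome 1, plus strand) are shown with the seed in capitals, because the mimic and the inhibitor were designed to alter this microRNA.
hsa-miR-197-3p: uUCACCACcuucuccacccagc
hsa-miR-197-5p: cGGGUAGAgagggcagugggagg
Seed matches in the member transcripts were not examined here.

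The mimic was compared with its control to see whether more miR-197 moved these genes. Of 17 member probes, 0 passed in pre-miR-197 against NC (limma, 0 also at an unadjusted p under 0.05), where 0.0801% of all probes were called. The methods' t-test also called 0 after adjustment. It leaves the gap between lines in its spread, so it could hardly call members whose lines lie far apart. The differences ran from -0.32 to 0.40 on the log2 scale with a median of -0.00. AKR1B1 showed the smallest adjusted p of the members, at 0.415, with levels of 7.71 and 7.77 in A549, 4.22 and 4.07 in PC14, and 4.38 and 3.61 in PC14CDDP on the NC and pre-miR-197 arrays. Its log2 difference was -0.29 ± 0.16, and the PC14CDDP pair alone carried most of it, with a ratio of -0.78.

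After LNA-miR-197 against LNA-NC, 7.95% of all probes were called and 0 of 17 member probes (limma, 0 also at an unadjusted p under 0.05). The methods' t-test called 0 after adjustment, with the same limit that the gap between lines enters its spread. The widest differences were those of AKR1B10, at 1.18 ± 0.86 and 1.35 ± 0.89 on the log2 scale (limma, adjusted p = 0.416 and 0.366), and of AKR1C3 and the start-codon AKR1C1 probe, at -0.70 ± 0.35 and -0.80 ± 0.50 (limma, adjusted p = 0.244 and 0.339). They did not have the same size in the 3 lines. For the brighter AKR1B10 probe, LNA-miR-197 over LNA-NC was 0.16 in A549 and -0.51 in PC14, and in PC14CDDP the gene went from not well above background to -3.57, at least 6.12-fold higher with 1 array on each side.

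The LNA-miR-197 array of PC14CDDP differed from the other 3 arrays of that line in several AKR genes. Both AKR1B10 probes were well above background there and on no other PC14CDDP array, and so was the AKR1B15 probe, at -4.13 against -6.51 to -5.43; that probe also lists an AKR1B10 transcript. In the opposite direction, AKR1C1, AKR1C3 and the start-codon AKR1C1 probe were well above background on the other 3 PC14CDDP arrays and not on this one, the LNA-NC array being at least 2.67-fold, 1.21-fold and 1.69-fold higher. In PC14 the ratio of LNA-miR-197 to LNA-NC was -0.51 for AKR1B10, -0.08 for AKR1C1 and -1.36 for AKR1C3. This array had the lowest share of probes well above background of the 12; its part in these values was not tested.

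**Figure D3:**
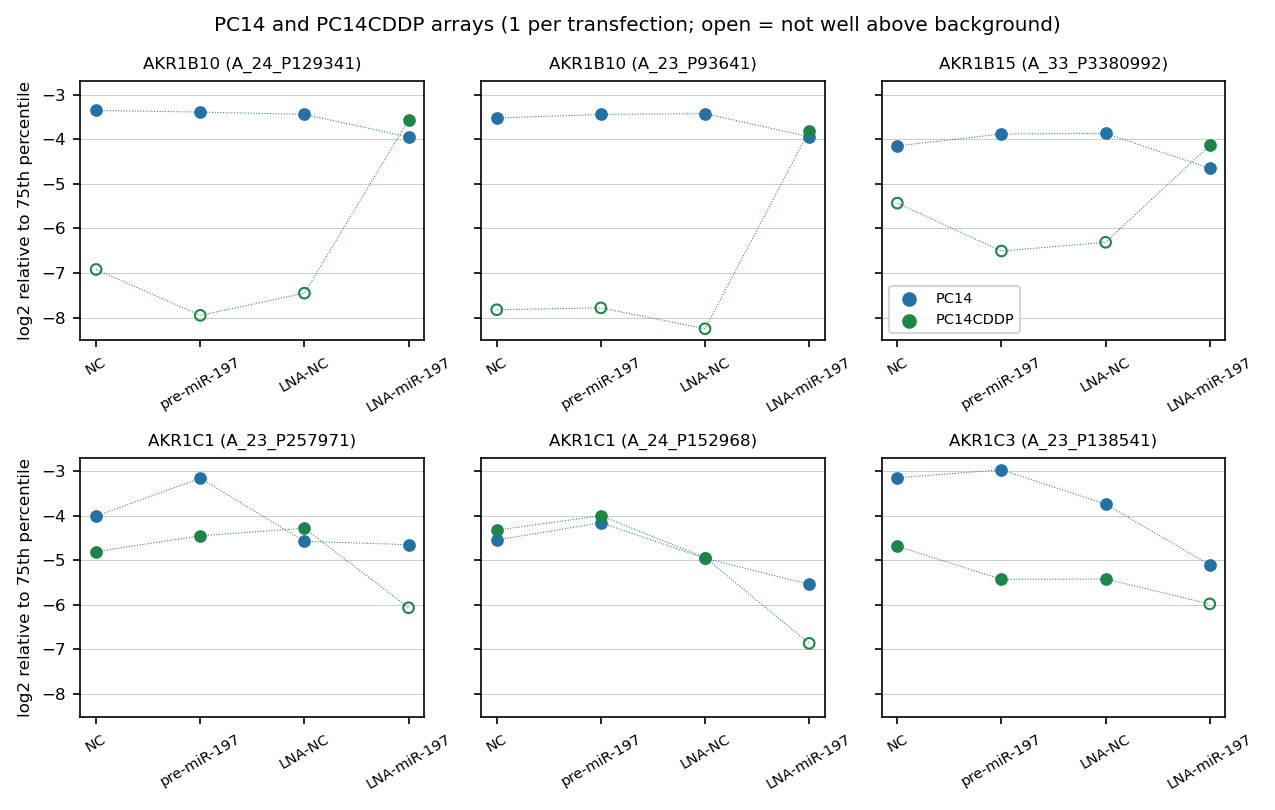
Log2 signal relative to the 75th percentile (vertical axis) of AKR1B10, AKR1B15, AKR1C1 and AKR1C3 probes on the 4 PC14 (blue) and 4 PC14CDDP (green) arrays by transfection, open where the probe was not well above background; dotted lines only join arrays of a line. On the LNA-miR-197 array of PC14CDDP, AKR1B10 reached -3.57 and -3.81 while AKR1C1 lay at -6.06 and -6.86.

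Between the 2 control oligonucleotides, LNA-NC against NC, 0 of 17 member probes were called (limma, 0 also at an unadjusted p under 0.05), with 0.454% of all probes called. The methods' t-test called 0 after adjustment, again with the gap between lines in its spread. Differences ran from -0.43 for AKR1C3 to 0.39 for an ALDH3B1 probe on the log2 scale. This range is about that of pre-miR-197 against NC, with which it shares the NC arrays.

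Within single lines, where a ratio rests on 1 array per condition and has no replicate check, 1 member probe measured on both arrays differed by 2-fold or more: AKR1C3 in PC14 after LNA-miR-197, at -1.36 on the log2 scale. All other measured ratios, 17 probes in A549, 14 in PC14 and 9 to 12 in PC14CDDP per comparison, stayed within 2-fold. In A549, where the members were bright and all 17 measured, ratios lay between -0.39 and 0.34 for pre-miR-197 over NC and between -0.44 and 0.62 for LNA-miR-197 over LNA-NC. Over all probes measured on both arrays, 1.40% and 4.44% differed by 2-fold or more in these A549 pairs. For LNA-miR-197 over LNA-NC the share was 2.63% in PC14 and 10.2% in PC14CDDP.

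**Figure D4:**
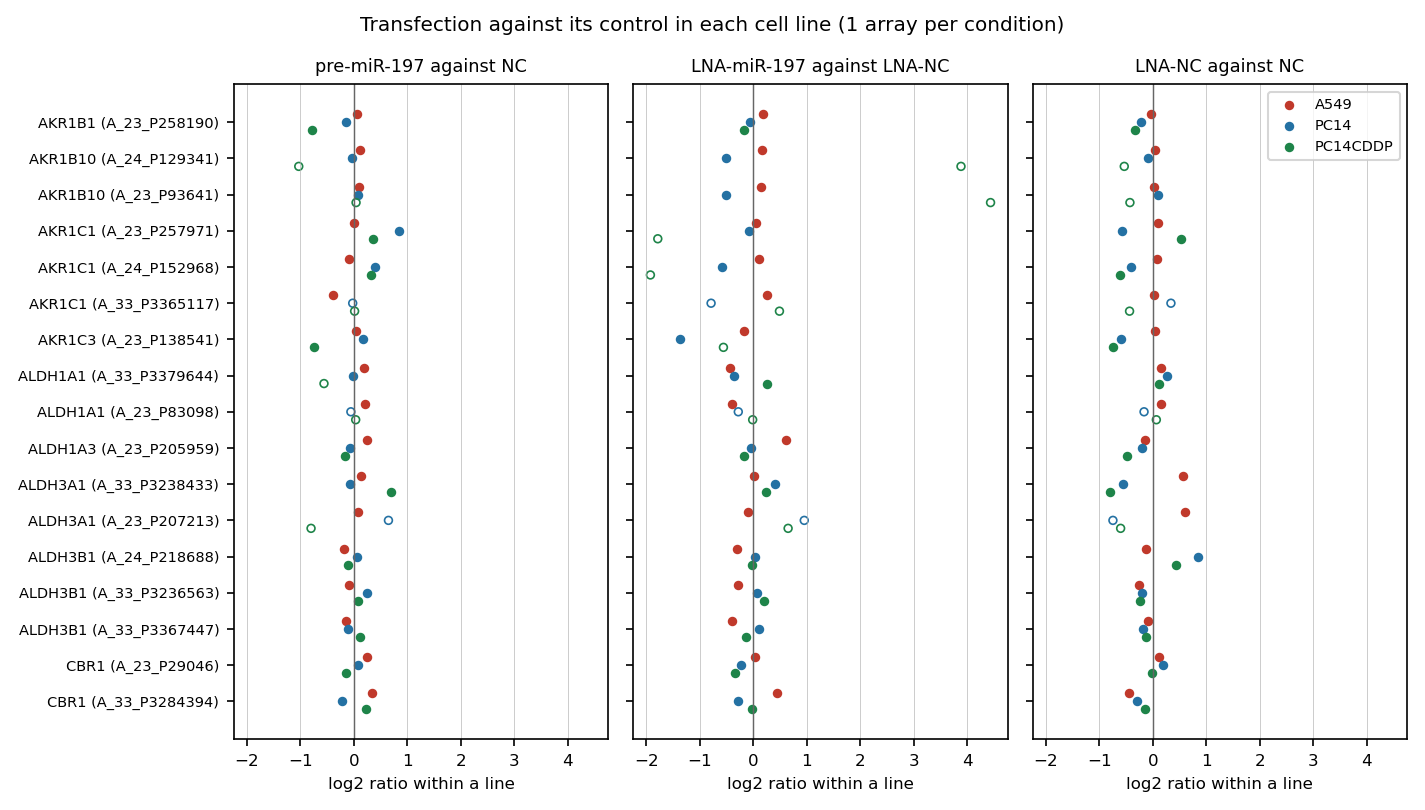
Log2 ratio of each transfection to its control within a cell line (horizontal axes) for the 17 member probes, 1 array per condition, filled where the probe was well above background on both arrays. Filled points stayed between -1.36 and 0.85, and the points farthest from 0 are AKR1B10 in PC14CDDP after LNA-miR-197, which are open because the LNA-NC array was not well above background.

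Other genes of the same families were counted on 1 probe each. For comparison with this and the following lists, 34.4% of all probes were called higher and 33.1% lower in A549 than in PC14. Between PC14CDDP and PC14, 25.1% were called higher and 23.5% lower. The list counts include genes that passed the filter through a single line, which had to differ between lines. Of 8 other AKRs tested, 4 were called higher and 4 lower in A549 than in PC14. The 4 higher ones included AKR1B15, next to AKR1B10, at 11.80 on the log2 scale. Its probe also lists an AKR1B10 transcript, so the signal may come from either gene. Also higher were AKR1C4 and AKR1CL1 (AKR1C8 in RefSeq) of the chromosome 10 cluster. AKR1CL1 differed by 10.95, and AKR1C4, measured on 0 arrays of PC14 and PC14CDDP, was at least 1580-fold higher. Second probes of both genes differed from this: that of AKR1CL1, A_33_P3329028, was well above background on 0 of the 12 arrays, and that of AKR1C4, A_23_P149926, was measured on the 4 A549 arrays alone and gave a bound of at least 2.88-fold. AKR1E2, at the edge of that cluster, was 1.56 higher. The 4 lower ones, AKR1A1, AKR7A2, AKR7A3 and AKR7L, differed by -0.57 to -0.87. Large differences in favor of A549 thus lay on probes of AKR1B and AKR1C genes, though not on every probe of them. AKR1A1 and the AKR7 genes went the other way by less than 2-fold.

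Of 15 other ALDHs, 6 were called higher and 4 lower in A549 than in PC14, with a median of 0.01 on the log2 scale. Of these 6, ALDH1A2 was well above background on 0 arrays of either line, so 5 are read as higher, and without it the median was -0.075. Between PC14CDDP and PC14, 3 were higher and 5 lower. ALDH1A2, the third retinaldehyde dehydrogenase, was measured on 4 of 4 PC14CDDP arrays at a mean of -1.01 ± 0.43 (SD, n = 4) and on no array of A549 or PC14, where its mean was -7.75 and -8.41. It was at least 37.8-fold above PC14 and at least 34.4-fold above A549, a description without a test, since the probe passed the filter through the PC14CDDP arrays only. ALDH5A1, which acts in GABA breakdown, differed by -1.62 (adjusted p = 0.00016), and ALDH3A2, a fatty aldehyde dehydrogenase, by -0.57 (adjusted p = 0.00265). The 3 genes of the ALDH1A group therefore stood apart by line: ALDH1A1 highest in A549, ALDH1A2 measured in PC14CDDP alone, and ALDH1A3 measured in all 3 lines.

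Among 15 other carbonyl and quinone reductases, 9 were lower and 1 higher in PC14CDDP than in PC14, with a median of -0.60 on the log2 scale (-0.71 without the gene measured in neither line) beside 0.04 over all probes. The 3 farthest apart were DHRS2 at -3.78, HSD11B1, which regenerates active cortisol, at -3.31 and HSD11B2, which inactivates it, at -1.51 (limma, adjusted p = 3.79e-06, 0.000277 and 0.00023). HSD11B1 was measured on 1 of 4 PC14CDDP arrays. CBR3, the paralog of CBR1, did not pass there. Between A549 and PC14 the list had 5 higher, among them CBR3 by 1.81 and the quinone reductase NQO1 by 1.44, and 8 lower.

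Of 18 genes of retinoid and retinoic acid handling, 13 were called higher and 2 lower in A549 than in PC14, beside 34.4% and 33.1% of all probes. The list median was 1.07 on the log2 scale. RBP4, among the 13, was measured on A549 arrays only. STRA6, the receptor that takes up retinol, differed by 9.94 and was measured on 1 PC14 array, and the retinoic acid receptor RARB, measured on 0 PC14 arrays, was at least 16.5-fold higher. In PC14CDDP against PC14, 6 were higher and 4 lower, among them the retinoic acid hydroxylase CYP26A1 at -2.42 and the retinol dehydrogenase RDH10 at -1.62 on the log2 scale (limma, adjusted p = 0.00912 and 5.88e-05). CYP26A1 was measured on 2 of 4 PC14CDDP arrays.

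NRF2, its regulators and other targets were counted because several member genes are NRF2 targets. Of 22 tested genes, 18 were called higher and 2 lower in A549 than in PC14, beside 34.4% and 33.1% of all probes. The list median was 1.26 on the log2 scale, and the 2 lower genes were KEAP1 at -0.90 and BACH1 at -0.79. NFE2L2, which encodes NRF2, was well above background on 0 of 12 arrays with its single probe. In PC14CDDP against PC14, 7 were higher and 6 lower with a median of -0.00; the farthest were the transporter ABCC3 at -3.05, GCLC of glutathione synthesis at -1.07 and thioredoxin (TXN) at 0.95 (limma, adjusted p = 0.00342, 0.00109 and 0.000124). After LNA-miR-197, 2 genes of the list were called higher, OSGIN1 by 2.3-fold and KEAP1 by 0.53 on the log2 scale (limma, adjusted p = 0.0424 and 0.0452). The part of NRF2 in the levels of the member genes was not tested.

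Of 8 genes of prostaglandin synthesis and breakdown, 5 were higher and 3 lower in A549 than in PC14, beside 34.4% and 33.1% of all probes. HPGD, which degrades prostaglandins, was at least 125-fold and the cyclooxygenase gene PTGS2 at least 23.8-fold higher in A549, with neither measured on an array of PC14 or PC14CDDP. Between PC14CDDP and PC14, 3 were higher and 2 lower, led by PTGDS at -2.02 on the log2 scale and PTGES, measured on 0 PC14 arrays and at least 2.93-fold higher; PTGS2 was called at 1.74 although it was well above background on 0 of the 8 arrays. Apart from the 2 NRF2 genes named, no gene of the 6 lists was called in LNA-miR-197 against LNA-NC, and none in the other comparisons of transfections.

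The genes whose levels most resembled those of 4 members over the 12 arrays followed the line pattern. Among 20581 genes measured on at least 9 arrays, AKR1B10 was most like PFKFB3 (Pearson r = 0.996), AKR1B15 (0.993) and EPDR1 (0.993), and AKR1C1 was most like KRT83 (0.999), ABLIM1 (0.996) and DNAJC22 (0.996). ALDH1A1 on A_33_P3379644 was most like a transcript named in the files only by an accession (0.999), ADGRG6 (0.998) and a lincRNA locus (0.998), and ALDH3A1 most like PYCARD (0.997) and 2 transcripts without a gene name (both 0.996). These correlations are descriptions over 12 arrays that share lines and slides, and between 7 and 63 genes passed a correlation of 0.99 with each of the 4 members. With each line centered on its own mean, the correlations of the 12 named genes with their member ran from 0.195 to 0.946. The lowest was that of the lincRNA locus with ALDH1A1. The highest was that of AKR1B15 with AKR1B10, and the AKR1B15 probe also lists an AKR1B10 transcript.

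RefSeq promoter windows of 300 bases, 250 before and 50 after the start of transcription, were at hand for 8 of the 10 genes, with 11 windows in all. AKR1B10 and ALDH3A1 had no window, so their promoters were not searched. The core of the antioxidant response element, TGACNNNGC on either strand, was in 1 of the 11 windows, that of CBR1, and in 13.35% of all 35116 windows. It is shown with 30 bases of chromosome 21 at chr21:36069855-36069884 (GRCh38.p14, plus strand), the match on the minus strand in capitals.
CBR1: tgcgggttctGCAAAGTCAggctagctggc
The AP-1 letters TGANTCA, searched on both strands, were in 0 of the 11 windows and in 7.71% of all windows. A match in such a window is a description of letters, and elements farther away were not searched.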

How the data were processed

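Total RNA (100 ng) of 12 transfected samples was labeled with Cy3 and hybridized to SurePrint G3 Human GE v2 8x60K arrays. The deposited scanner files hold spot intensity from Agilent Feature Extraction 10.7.3.1, per the labels; the authors' processed signal is background-subtracted, and their deposited value table equals it on all 62976 spots. Background, outlier and saturation flags were taken from the same deposited files; 0 spots of member probes were flagged or saturated. Outlier and control spots were left out, spots of a probe averaged, and log2 of the processed signal taken minus the log2 75th percentile of each array. Probe names are those of the array files; 28120 of 50493 probes were matched to RefSeq symbols by accession.

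Probes well above background on at least 3 of 12 arrays (33712) were fitted with limma 3.58.1 in R 4.3.3, with transfection and cell line as terms, and Benjamini-Hochberg adjustment over all probes at 0.05. The line is the replicate of a transfection, and the 4 arrays of a line are the replicates of a line; nothing in the sources says how many cultures lie behind an array. Arrays of a line correlated in their deviations with r of 0.845 to 0.947, so the line was kept as the pairing block. The member genes and lists were chosen with earlier results of these data known, and no list was given a test of its own. Each gene is described on the probe with the highest mean and every other probe is accounted for; up to 3 genes per list with the widest called difference between PC14CDDP and PC14 are named, as well as further list members picked after their values were seen. A probe that reached no array of a line well above background has a lower bound as its fold: the mean of the brighter line over, per array, the higher of the probe's own value and the lowest signal well above background. The number of arrays limits the precision. The fit was tested on simulated data. Alternatives were normalization, background correction, filter, gene-level probes, prior, arrays in the fit, blocks, the methods' t-test and leaving out arrays. Figures were drawn with Python 3.11.15 and matplotlib 3.10.9. Apart from the RefSeq promoter windows and the mature miR-197 sequences, genome, transcript and protein sequences were not used here. The coding positions given for probes were therefore not checked against transcripts.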

Additional observations from a re-analysis of the deposited data

Results flagged for a closer look

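Chance alone would mark about 1 in 20 groups of 4 arrays as holding a distant array, and 2 of 45 groups were marked. AKR1B10 on its second probe (A_23_P93641) stood at -3.81 on the LNA-miR-197 array of PC14CDDP, with the other 3 arrays of that line between -8.25 and -7.78 and not well above background. AKR1B10 on its first probe (A_24_P129341) stood at -3.95 on the LNA-miR-197 array of PC14, below the other 3 arrays at -3.44 to -3.35.

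In 3 of 51 pairs of a probe and a comparison, measured ratios of at least 1.2-fold went opposite ways in different lines; these differences were not tested, since each ratio rests on 1 array per condition. For LNA-NC against NC, AKR1C1 was at 0.53 in PC14CDDP and -0.57 in PC14, a gap of 1.09 on the log2 scale. For the same comparison, ALDH3A1 was at 0.57 in A549 and -0.79 in PC14CDDP, a gap of 1.36. For LNA-miR-197 against LNA-NC, the second CBR1 probe was at 0.45 in A549 and -0.28 in PC14, a gap of 0.73.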

How the results depend on the processing

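In the fit without the cell line as replicate block, and in the methods' t-test, the gap between lines enters the spread of a transfection comparison. Such settings could hardly call a member whose lines lie far apart. No member reached an adjusted p under 0.05 between transfections under any alternative, these included. The count of member probes called stayed at 0 in those 3 comparisons. For PC14CDDP against PC14 it was 3 of 8 probes with the filter of all 12 arrays, 4 of 9 on the highest-mean probe per gene, 4 by the methods' t-test and 4 to 8 with the arrays of 1 transfection left out (4 without NC or without pre-miR-197, 5 without LNA-NC, 8 without LNA-miR-197). For A549 against PC14 it was 7 of 8 and 9 of 9, and against PC14CDDP 8 of 8 and 9 of 9, with the all-array filter and per gene; fewer probes entered these fits.

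Changes of sign met differences that had not passed. With 1 line left out of pre-miR-197 against NC, log2 differences ran from -0.53 to 0.0381 for AKR1B10, -0.35 to 0.11 for AKR1C3, -0.28 to 0.0851 for ALDH1A1, -0.12 to 0.0809 for ALDH1A3 and -0.0382 to 0.16 for CBR1, which was also -0.0053 with quantile normalization. For LNA-miR-197 against LNA-NC they ran from -0.12 to 0.0566 for AKR1B1, -0.18 to 2.02 for AKR1B10 (negative without PC14CDDP), -0.11 to 0.28 for ALDH1A3 and -0.17 to 0.0064 for ALDH3B1. For LNA-NC against NC they ran from -0.24 to 0.31 for AKR1C1, which was -0.0522 with normexp, and from -0.68 to 0.0044 for ALDH3A1. For PC14CDDP against PC14, leaving out 1 transfection gave -0.16 to 0.0458 for AKR1B1 and -0.14 to 0.0183 for ALDH3B1. These were 0.0997 and 0.0048 on the NC and LNA-NC arrays alone. With normexp, ALDH1A1 was 2e-04 and ALDH3B1 0.0228. The cause was not tested. Signals near background limit the PC14 and PC14CDDP values of AKR1B10, AKR1C1, AKR1C3 and ALDH1A1, where normexp gave smaller differences.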
